A study of Rattus norvegicus with 78 samples.

Results

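The epididymal lipocalin, cystatin, Spink and Wfdc genes were described here in RNA from sperm of the rat cauda epididymis. The set held the array's genes with a symbol that starts with Lcn, Cst, Spink or Wfdc and goes on with a digit, together with Csta, Cstb and Cstl1 and without Lcn2. Probe sets with several symbols were left out, and a gene with several probe sets would have entered by the one of highest mean over all arrays. The rule used names and overall level, and no difference between groups. It gave 40 genes of 14506 with 1 symbol on the array: 7 lipocalins, 12 cystatins, 8 Spink genes and 13 Wfdc genes. Each of the 40 had 1 probe set, so no choice between probe sets was needed.

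Sperm of Fischer 344 rats were measured on 78 arrays, with 1 array per sample. There were 19 arrays of rats given 1,2-dibromo-3-chloropropane (DBCP) at 5 mg/kg/d and then left to recover (DBCP recovery), 19 of corn oil rats after recovery (corn oil recovery), 20 of DBCP rats without recovery and 20 of corn oil rats without recovery. DBCP, a soil fumigant, is a toxicant of male germ cells, and corn oil served as the control. The text of the series gives 3 months of exposure. How long the recovery lasted and how old the rats were is not stated in the labels, and the groups without recovery are called end of exposure here. Sperm left the punctured cauda into saline and were spun down after the tissue pieces. A lysis buffer with ammonium chloride, of the kind used against red cells, was then applied for a short time, and no other step to purify sperm is described. The labels call the samples biological replicates, with no word on pooling or on single animals. Their tissue label is sperm, while the title of the series speaks of testis.

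The epididymis is the duct in which sperm mature after they leave the testis, and its lining secretes proteins that act on the sperm surface and on the fluid around it. Epididymal lipocalins are small secreted proteins that carry hydrophobic ligands, such as the retinoic acid bound by Lcn5. Cystatins inhibit cysteine proteases. Spink genes encode Kazal-type inhibitors of serine proteases, and Wfdc genes encode proteins with a whey acidic protein core, many of them protease inhibitors or antimicrobial. Several members are known from other places: Cst7 from leukocytes, Cst6 from skin, Lcn1 from tear fluid, Spink1 from the pancreas and Spink2 from the sperm acrosome. All 7 lipocalins, 9 of the 12 cystatins and 10 of the 13 Wfdc genes lie on chromosome 3 in the RefSeq table of assembly GRCr8, and 5 Spink genes (Spink1, Spink1l, Spink6, Spink13 and Spink14) lie on chromosome 18. RefSeq lists Spink14 as a miscellaneous RNA rather than as a protein-coding gene.

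All values are log2 signals of probe sets as the authors deposited them. The array medians lay between 6.55 and 6.75, the median of all probe set means was 6.69, and r between any pair of arrays was from 0.860 to 0.988 over the probe sets, which are no independent units. Limma gave 6 arrays a quality weight under 0.5: replicates 2, 13 and 20 of DBCP, 7 and 15 of DBCP recovery, and 11 of corn oil recovery. They stayed in. Defining sperm genes were bright, with Prm1, a protamine, at 12.82 ± 0.22 in DBCP recovery, 12.87 ± 0.21 in corn oil recovery, 13.16 ± 0.21 in DBCP and 12.99 ± 0.27 in corn oil (SD). The leukocyte gene Cd74, the invariant chain of MHC class II, was at 11.69 ± 0.29, 11.87 ± 0.25, 10.90 ± 0.37 and 11.10 ± 0.32 in the same order of groups. No measure of background was used here, so a low signal cannot be called absent. In RNA of mixed cells, fewer cells of a type and less RNA per cell cannot be told apart.

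The members spanned much of the signal range of the array. Of the 40, 24 had a mean above the median of all probe set means: 4 of 7 lipocalins, 6 of 12 cystatins, 4 of 8 Spink genes and 10 of 13 Wfdc genes. Signals of different probe sets depend on their probes, so they give no order of transcript amounts. The probe set of Wfdc10a, a WAP-type gene, averaged 11.96 over all arrays, and those of Wfdc6b and of Cst3 (cystatin C, a secreted inhibitor made by many cells) averaged 8.64 and 8.62. Wfdc9 averaged 7.95, Spink2 7.83, Wfdc15b (an antimicrobial protein of the SWAM type) 7.70, Wfdc11 7.70 and Wfdc2 (known as HE4 in humans) 7.69. Lipocalin means lay between 6.41 and 6.97, close to the middle of the array, and the highest of them was that of Lcn5.

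Arrays of a group agreed on some members far better than on others. The SD within groups was smallest for Wfdc2 (0.13) and Cst7 (0.14), and largest for Spink13 (0.49), Lcn5 (0.49), Cst8 (0.47) and Wfdc6b (0.45). Of these 4, Spink13 and Wfdc6b were highest on DBCP replicate 20, Cst8 on DBCP replicate 13 and Lcn5 on corn oil recovery replicate 20.

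The first comparison set DBCP against corn oil directly after exposure, the question being whether the toxicant changed the RNA carried by sperm. No member passed an adjusted p of 0.05 (0 of 40, limma with Benjamini-Hochberg adjustment over all probe sets), where 0% of all 29214 probe sets did. At an unadjusted p under 0.05 there were 4 of 40 members (Cst8, Cstb, Cstl1 and Spink6) and 11.6% of all probe sets, and a plain 2-sample t statistic with the same adjustment also gave 0 members. The median difference was -0.01 over the members and -0.02 over all probe sets, and single members lay between -0.18 and 0.46.

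The member of smallest p in that comparison was Cst8, called CRES, a cystatin of spermatids and of the epididymis. Its signal was lowest at 6.99, with a median of 7.75 and a highest value of 9.99, on the DBCP arrays, against 6.97, 7.39 and 8.58 on the corn oil arrays. The groups overlapped, and the DBCP group reached higher. The difference was 0.46 (95% interval 0.16 to 0.75, adjusted p = 0.181), with 13 of 20 DBCP arrays above the corn oil mean. Without the 6 arrays of low weight it was 0.20 (SE 0.11). Cstb, an intracellular cystatin, differed by 0.21 (interval 0.03 to 0.39, adjusted p = 0.353), with 15 of 20 DBCP arrays above the corn oil mean. Cstl1, a cystatin-like gene of the same cluster, differed by 0.24 (interval 0.03 to 0.46, adjusted p = 0.370), and by 0.06 (SE 0.08) without the low-weight arrays. None of these 3 differences passed the test.

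After recovery the members of DBCP and corn oil rats were again not separated by the test. There were 0 of 40 members and 0% of all probe sets at an adjusted p under 0.05, and 1 of 40 members against 3.71% of probe sets at an unadjusted p under 0.05. The plain 2-sample t statistic gave 0 members as well. Differences ranged from -0.24 to 0.10, with a median of 0.01 over the members and 0.01 over all probe sets. Cst3 was at -0.24 (interval -0.46 to -0.02), with 14 of 19 DBCP recovery arrays below the corn oil recovery mean. Cst11, a relative of Cst8, was at 0.10 (interval -0.02 to 0.23), and Spink8 at 0.09 (interval -0.02 to 0.19). The adjusted p was 0.983 for each of the 3. Lcn5, whose product binds retinoic acid, was at -0.22 (interval -0.53 to 0.08), and at -0.11 without corn oil recovery replicate 20.

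Whether the DBCP difference itself changed with recovery was tested by the interaction. It passed for 0 of 40 members and for 0% of probe sets. At an unadjusted p under 0.05 stood 5 of 40 members and 10.9% of probe sets, and the plain 2-sample t statistic gave 0 members. The smallest p-values belonged to Cstb at -0.33 (interval -0.59 to -0.07), Cst8 at -0.47 (interval -0.89 to -0.06) and Cst11 at 0.19 (interval 0.02 to 0.36), with an adjusted p of 0.454 each. Without the 6 arrays of low weight the value of Cst8 was -0.25. The changes over time given next are therefore not shown to differ between DBCP and corn oil rats, also where 1 of the treatments passed the test and the other did not.

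**Figure D1:**
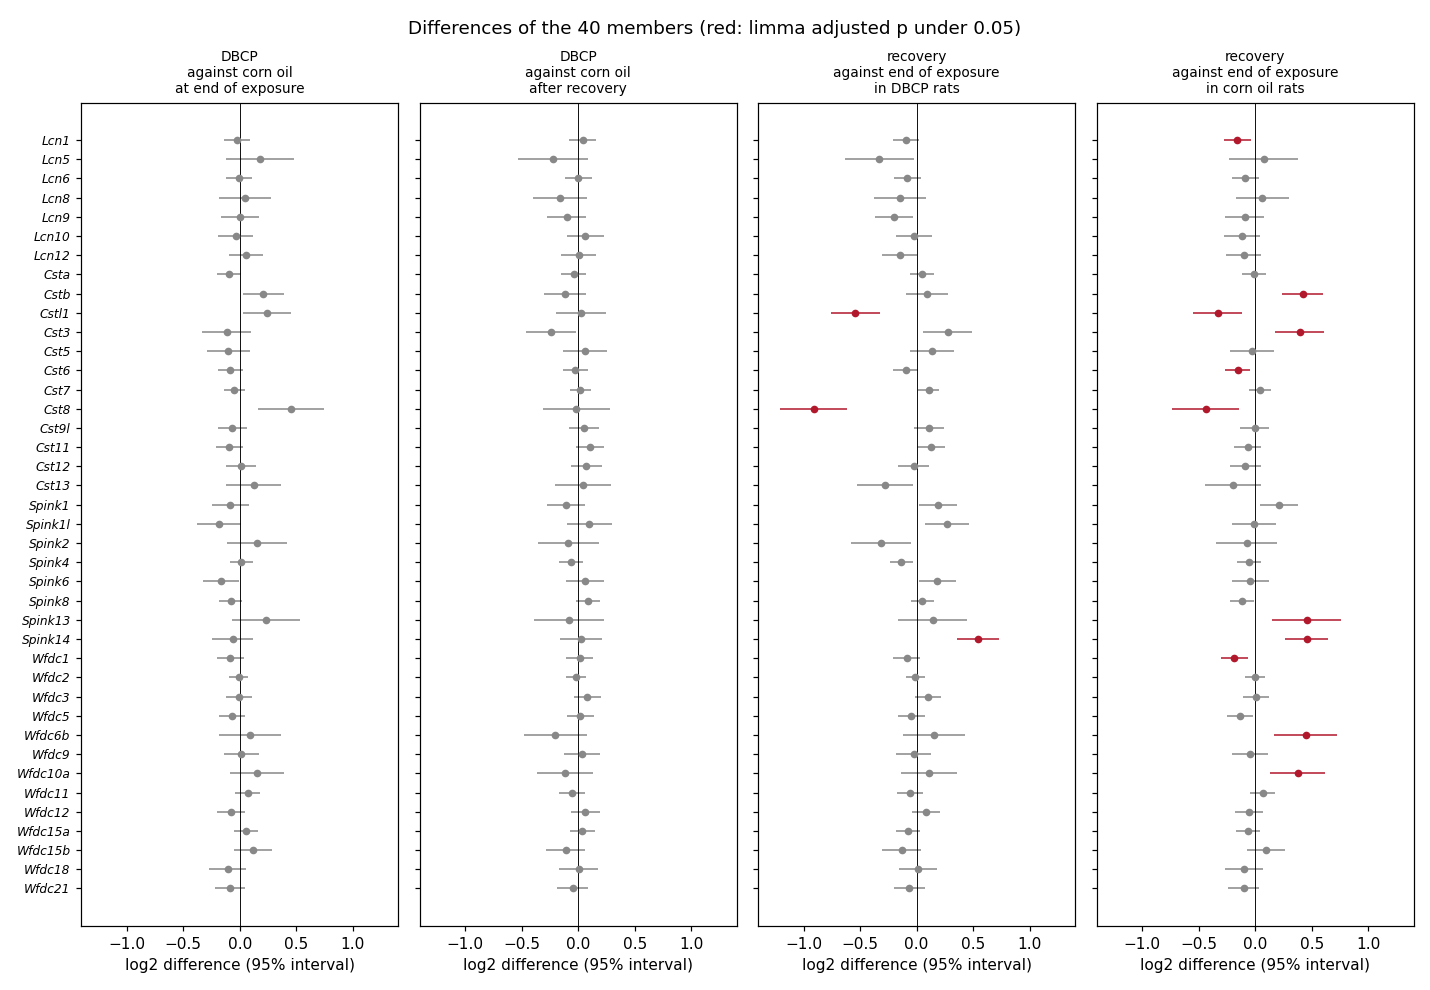
Log2 differences of the 40 members (one row each) in 4 comparisons, with 95% intervals; red marks an adjusted p under 0.05. No member passed in either comparison of DBCP with corn oil, 3 passed between recovery and end of exposure in DBCP rats, and 11 passed in corn oil rats.

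Members passed the test in the comparisons over time alone, and the same held for the probe sets of the whole array. In DBCP rats 3 of 40 members passed between recovery and end of exposure (7.5%), beside 13.5% of all probe sets (7.28% higher and 6.19% lower). At an unadjusted p under 0.05 there were 14 of 40 members and 27.1% of probe sets. Spink14 rose, and Cst8 and Cstl1 fell. Corn oil rats had 11 of 40 members passing (27.5%), near the 24.3% of all probe sets (11.5% higher and 12.8% lower), with 6 that rose and 5 that fell. Here 14 of 40 members and 37.9% of probe sets had an unadjusted p under 0.05. Cst3, Cstb, Spink13, Spink14, Wfdc6b and Wfdc10a rose, while Cst6, Cst8, Cstl1, Lcn1 and Wfdc1 fell. Both shares are read against a background in which the array as a whole differed between recovery and end of exposure, and neither is a result about the members in particular. Labels give no shared handling of the groups, so recovery, age of the rats and handling of the arrays cannot be told apart in these comparisons.

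By family, the corn oil comparison called 5 of 12 cystatins, 1 of 7 lipocalins, 2 of 8 Spink genes and 3 of 13 Wfdc genes. The share over all probe sets was 24.3%. In DBCP rats it was 2 of 12 cystatins, 0 of 7 lipocalins, 1 of 8 Spink genes and 0 of 13 Wfdc genes, beside 13.5% of all probe sets. The families are small, and no difference between them was tested. The median difference over the members was -0.02 in DBCP rats, where that of all probe sets was 0.01. For corn oil rats it was -0.05, where that of all probe sets was -0.04.

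The cystatins Cst8 and Cstl1 fell in both treatments. Cst8 (probe set 10840590) was between 6.56 and 7.67 with a median of 7.02 in DBCP recovery, and between 6.99 and 9.99 with a median of 7.75 in DBCP at the end of exposure. All 19 DBCP recovery arrays lay below the DBCP mean before recovery, although the lowest DBCP arrays reached into their range. The fall was 0.91 on the log2 scale (1.88-fold lower, SE 0.15, adjusted p = 4.69e-06). Cst8 in corn oil rats had a lowest value of 6.55, a median of 7.11 and a highest value of 7.48 in recovery, against 6.97, 7.39 and 8.58 at the end of exposure. There too the groups overlapped and all 19 recovery arrays were below the other mean, and Cst8 fell by 0.44 (1.35-fold lower, SE 0.15, adjusted p = 0.0239).

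Cstl1 (probe set 10840577) went the same way with smaller steps. In DBCP recovery its signals ran from 6.40 through a median of 6.59 to 7.08, against 6.35, 7.00 and 8.82 at the end of DBCP exposure. The fall was 0.54 (1.46-fold lower, SE 0.11, adjusted p = 1.97e-04), with 19 of 19 recovery arrays below the mean they were set against. Corn oil rats had lowest, median and highest values of 6.31, 6.59 and 6.88 in recovery, against 6.51, 6.82 and 7.66 at the end of exposure, a fall of 0.33 (1.26-fold lower, SE 0.11, adjusted p = 0.0208), again with 19 of 19 arrays below. The corn oil call of Cstl1 was lost when each array was centred on its median. After recovery both genes had narrow ranges, and the high values were found at the end of exposure.

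The same few arrays were highest for both genes. Cst8 was at 9.99 on DBCP replicate 13, 9.38 on DBCP replicate 2, 8.88 on DBCP replicate 20 and 8.58 on corn oil replicate 9. Cstl1 was at 8.82, 7.98, 7.78 and 7.66 on these arrays, its 4 highest values. DBCP replicate 13 was also the highest array for Cst13 (cystatin T, known from mouse testis) at 7.93, for Spink2 at 9.50 and for Wfdc15a at 6.88. The DBCP arrays named here are 3 of the 6 of low weight. Without those 6, Cst8 fell by 0.69 (SE 0.12) and Cstl1 by 0.40 (SE 0.08) in DBCP rats, and both still passed.

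Sperm genes moved with these cystatins. Of 18 sperm and spermatid genes on the array, 0 rose and 16 fell in DBCP rats (median difference -0.84), and 0 rose and 12 fell in corn oil rats (median -0.43). Their mean level per array ranged from 9.43 to 10.66 in DBCP recovery, 9.30 to 10.32 in corn oil recovery, 9.83 to 11.87 in DBCP and 9.31 to 11.02 in corn oil, all of the 18 being above the median of probe set means. Between DBCP and corn oil before recovery, their median difference was 0.41 with 0 passing. Across the arrays of a group, Cst8 correlated with Akap4, a sperm tail scaffold, at r = 0.76 in DBCP recovery, 0.46 in corn oil recovery, 0.94 in DBCP and 0.85 in corn oil. For Cstl1 with Akap4 r was 0.54, 0.12, 0.83 and 0.71 in the same order. These values are descriptive, since the pairs were singled out after their values were seen. What part the sperm genes have in the falls of Cst8 and Cstl1 was not tested.

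Of the members with the highest means, Wfdc9, Wfdc15b, Wfdc11 and Wfdc2 passed in no comparison. Wfdc9 was at 7.94 ± 0.19 in DBCP recovery, 7.91 ± 0.31 in corn oil recovery, 7.97 ± 0.26 in DBCP and 7.96 ± 0.23 in corn oil (SD). Wfdc15b was at 7.63 ± 0.31, 7.75 ± 0.19, 7.77 ± 0.26 and 7.65 ± 0.31 in the same order, and its highest signals were on DBCP recovery replicate 7 (8.62) and DBCP replicate 20 (8.58), arrays that were also high for Wfdc6b and Spink13. Wfdc2 was the steadiest member, at 7.68 ± 0.12, 7.70 ± 0.17, 7.69 ± 0.11 and 7.70 ± 0.11. Its group means were close together, nearer than the spread between arrays.

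The testis-type cystatin Cst13 had low signals with a few high arrays. They ran from 5.05 through a median of 5.45 to 5.85 in DBCP recovery, from 4.93 through 5.35 to 5.86 in corn oil recovery, from 5.08 through 5.50 to 7.93 in DBCP and from 5.20 through 5.46 to 6.36 in corn oil. High values were again found at the end of exposure. The difference between recovery and end of exposure was -0.28 in DBCP rats (SE 0.12, adjusted p = 0.123) and -0.20 in corn oil rats (SE 0.12, adjusted p = 0.237), and neither passed. The value in DBCP rats was -0.16 without DBCP replicate 13 and -0.12 without the 6 arrays of low weight. Cst13 correlated with Akap4 at r = 0.24 in DBCP recovery, 0.26 in corn oil recovery, 0.79 in DBCP and 0.77 in corn oil, values that describe and test nothing.

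**Figure D2:**
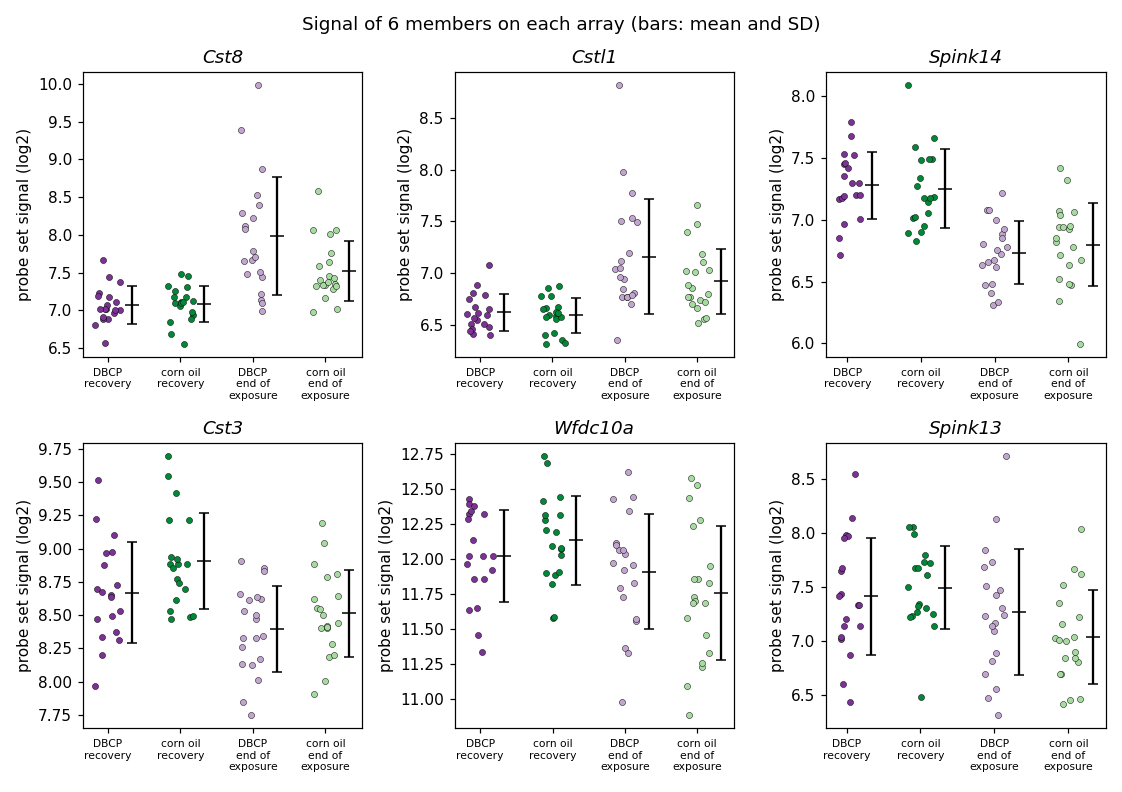
Log2 probe set signal of 6 members on each array, by group, with bars for the mean and SD. Cst8 and Cstl1 have wide ranges at the end of exposure, up to 9.99 and 8.82 on DBCP arrays, and narrow ones after recovery, while Spink14 is higher after recovery in both treatments and Cst3, Wfdc10a and Spink13 overlap widely between groups.

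The promoters of Cst8 and Cstl1 are shown because the genes share a cluster and fell in both treatments, and that of Lcn5 because it is the lipocalin of highest mean. Each run holds the 250 bases before the gene's start and its first base, from RefSeq, assembly GRCr8, plus strand, 5′ to 3′. Capitals mark the first base of the gene and, in Lcn5, a match to TATAAA. Cst8 spans chr3:156697526-156697776, Cstl1 chr3:156652802-156653052 and Lcn5 chr3:28871073-28871323.
Cst8: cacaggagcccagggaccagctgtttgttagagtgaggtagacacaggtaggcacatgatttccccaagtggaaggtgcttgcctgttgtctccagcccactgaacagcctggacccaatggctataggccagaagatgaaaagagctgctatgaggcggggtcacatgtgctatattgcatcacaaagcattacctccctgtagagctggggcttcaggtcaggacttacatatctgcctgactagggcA
Cstl1: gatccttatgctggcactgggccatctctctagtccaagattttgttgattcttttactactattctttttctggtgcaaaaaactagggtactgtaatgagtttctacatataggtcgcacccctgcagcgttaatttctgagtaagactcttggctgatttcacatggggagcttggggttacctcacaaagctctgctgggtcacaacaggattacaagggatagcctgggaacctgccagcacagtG
Lcn5: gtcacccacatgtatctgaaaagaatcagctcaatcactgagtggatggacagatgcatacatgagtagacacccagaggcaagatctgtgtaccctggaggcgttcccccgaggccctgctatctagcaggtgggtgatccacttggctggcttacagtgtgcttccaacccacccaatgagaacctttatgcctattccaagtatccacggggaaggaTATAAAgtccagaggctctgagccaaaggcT
The match in Lcn5 begins 30 bases before the start, where a TATA box lies in many promoters.

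The RefSeq promoter table held 31 of the 40 members, with 33 windows of 250 bases before and 50 after the start. Both strands were searched for 3 motifs, each counted apart from the others. The TATA box, spelled TATAAA, was in 5 windows, where 14.2% of the 33469 windows of all genes held it. The core of the cyclic AMP response element, spelled TGACG, was in 2 windows, where 21.2% of all windows held it. One arm of the androgen response element, spelled TGTTCT, was in 9 windows, where 20.7% of all held it. The windows of Cst8 and Cstl1 held none of the 3. A match is a description of the letters and shows no binding.

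Spink14 was the other member to pass in both treatments, and it rose. On DBCP recovery arrays Spink14 (probe set 10801466) ran from 6.72 through a median of 7.30 to 7.79, against 6.31, 6.74 and 7.22 on DBCP arrays at the end of exposure. The rise was 0.54 (1.46-fold, SE 0.09, adjusted p = 1.41e-05), with 18 of 19 recovery arrays above the other mean. For corn oil rats the lowest, median and highest values were 6.83, 7.18 and 8.09 in recovery, against 5.99, 6.84 and 7.42 at the end of exposure. Its rise there was 0.45 (1.37-fold, SE 0.09, adjusted p = 0.00026), with 19 of 19 arrays above. In both treatments the ranges overlapped.

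The members Wfdc10a, Wfdc6b and Spink13 rose in corn oil rats and tracked each other from array to array. Wfdc10a (probe set 10842156) had a lowest value of 11.58, a median of 12.10 and a highest value of 12.74 in corn oil recovery, against 10.88, 11.72 and 12.58 at the end of exposure. The rise was 0.38 (1.30-fold, SE 0.12, adjusted p = 0.0191), with 17 of 19 arrays above the other mean. Wfdc6b, another WAP-type gene of chromosome 3, ran from 8.24 through a median of 8.87 to 9.55 in corn oil recovery, against 7.62, 8.42 and 9.47, and rose by 0.45 (1.36-fold, SE 0.14, adjusted p = 0.0145, 15 of 19 above). Spink13, an epididymal Kazal inhibitor in the rat, had 6.48, 7.50 and 8.06 in corn oil recovery against 6.42, 7.00 and 8.04, and rose by 0.45 (SE 0.15, adjusted p = 0.0234, 18 of 19 above). The groups overlapped for each of the 3. In DBCP rats the differences were 0.11 for Wfdc10a, 0.15 for Wfdc6b and 0.14 for Spink13, with adjusted p between 0.507 and 0.606.

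Cst3 and Cstb rose in corn oil rats as well. Cst3 (probe set 10850563) ran from 8.47 through a median of 8.88 to 9.70 in corn oil recovery, against 7.91, 8.47 and 9.19 at the end of exposure. The rise was 0.40 (1.32-fold, SE 0.11, adjusted p = 0.00581, 16 of 19 arrays above). In DBCP rats Cst3 differed by 0.27 (SE 0.11, adjusted p = 0.0821), and by 0.31 (adjusted p = 0.0400) without DBCP recovery replicate 6. Cstb had 6.50, 7.45 and 8.08 in corn oil recovery against 6.63, 6.98 and 7.52, a rise of 0.42 (1.34-fold, SE 0.09, adjusted p = 0.00057, 17 of 19 arrays above), and differed by 0.09 (adjusted p = 0.549) in DBCP rats.

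Most leukocyte genes rose in both treatments. Wfdc10a, Wfdc6b, Spink13, Cst3 and Cstb passed in corn oil rats alone, which does not show that the treatments differed. Of 23 leukocyte genes on the array, 16 rose and 0 fell in DBCP rats (median difference 0.28), and 14 rose and 1 fell in corn oil rats (median 0.32). Their mean level per array ranged from 7.74 to 8.31 in DBCP recovery, 7.77 to 8.53 in corn oil recovery, 7.37 to 7.98 in DBCP and 7.51 to 8.16 in corn oil, with 18 of the 23 above the median of probe set means. Basal and clear cell genes of the epididymis gave 4 that rose and 1 that fell of 11 in corn oil rats, and 0 and 2 in DBCP rats. Cst7, the member known from leukocytes, passed in no comparison. Its r with Cd74 was -0.49 in DBCP recovery, -0.29 in corn oil recovery, 0.14 in DBCP and -0.54 in corn oil, values that are descriptive. What part leukocytes or the lining of the duct have in the rises was not tested.

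Correlations across arrays were computed for 18 planned pairs, within each of the 4 groups, and Benjamini-Hochberg adjustment ran over the 72 tests (permutation tests of 100000 resamples, two-sided). The pairs were chosen with earlier results of these data known, which the p-values do not allow for. Pearson's r passed in 17 tests and Spearman's rho in 16. Cst3 correlated with Cd74 in every group: r was 0.62 in DBCP recovery, 0.77 in corn oil recovery, 0.83 in DBCP and 0.79 in corn oil, with rho of 0.60, 0.72, 0.83 and 0.77. The adjusted p of r was at most 0.0214, and leaving out the 2 arrays farthest from the median of Cst3 gave r between 0.56 and 0.80. Cst3 also correlated with Wfdc10a in every group (r between 0.66 and 0.69, rho between 0.52 and 0.68, adjusted p of r at most 0.00828), and r was between 0.48 and 0.67 without the 2 farthest arrays. For Wfdc10a and Cd74, r was between 0.38 and 0.67 and passed in 1 of the 4 groups, corn oil at the end of exposure (adjusted p = 0.00731, and 0.0636 for rho). In DBCP their rho of 0.59 passed (adjusted p = 0.0370) and r did not. With the epididymal gene Crisp1, r was 0.70 for Cst3 (adjusted p = 0.00558) and 0.67 for Wfdc10a (adjusted p = 0.00731) in DBCP. In the other groups neither passed with Crisp1, with r between -0.33 and 0.22. Cst3 and Spink2 passed in corn oil (r = 0.60) and DBCP recovery (r = 0.75), with r of 0.34 in DBCP and 0.51 in corn oil recovery.

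Spink2, whose protein is needed for the acrosome in mouse and human sperm, followed Akap4. Their r was 0.78 in DBCP recovery, 0.56 in corn oil recovery, 0.80 in DBCP and 0.80 in corn oil, with rho of 0.78, 0.60, 0.64 and 0.74. The adjusted p of r was 0.0525 in corn oil recovery (0.0370 for rho) and 0.00096 in the other groups, and r was between 0.55 and 0.64 without the 2 farthest arrays. Spink2 itself had a lowest signal of 7.08, a median of 7.55 and a highest of 8.81 in DBCP recovery, against 7.15, 7.90 and 9.50 in DBCP at the end of exposure. That difference was -0.32 (SE 0.13, adjusted p = 0.104), and it was -0.38 (adjusted p = 0.0359) without DBCP recovery replicate 7, one of the low-weight arrays. The corn oil difference was -0.08 (adjusted p = 0.709).

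Among all 780 pairs of members, 15 had r over 0.5 in every group. These were picked by that limit, so their values describe and test nothing, and both signals of a pair come from the same arrays. Wfdc10a and Wfdc6b had r between 0.76 and 0.88, Spink13 and Wfdc10a between 0.69 and 0.87, Cst3 and Wfdc6b between 0.70 and 0.79, and Cstb and Wfdc6b between 0.63 and 0.73. Lcn8 and Lcn9 had r between 0.56 and 0.96, and Lcn9 and Lcn10 between 0.52 and 0.82. Wfdc18, a secreted WAP protein also called Expi, paired with Cst12, Cst9l, Cst5 and Spink1l. Cst8 and Cstl1, at r = 0.83 over deviations from the group means, did not reach 0.5 in every group. The highest array was not the same for Lcn5, Wfdc6b and Cst8, but DBCP replicate 20 was among the high arrays for all 3.

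**Figure D3:**
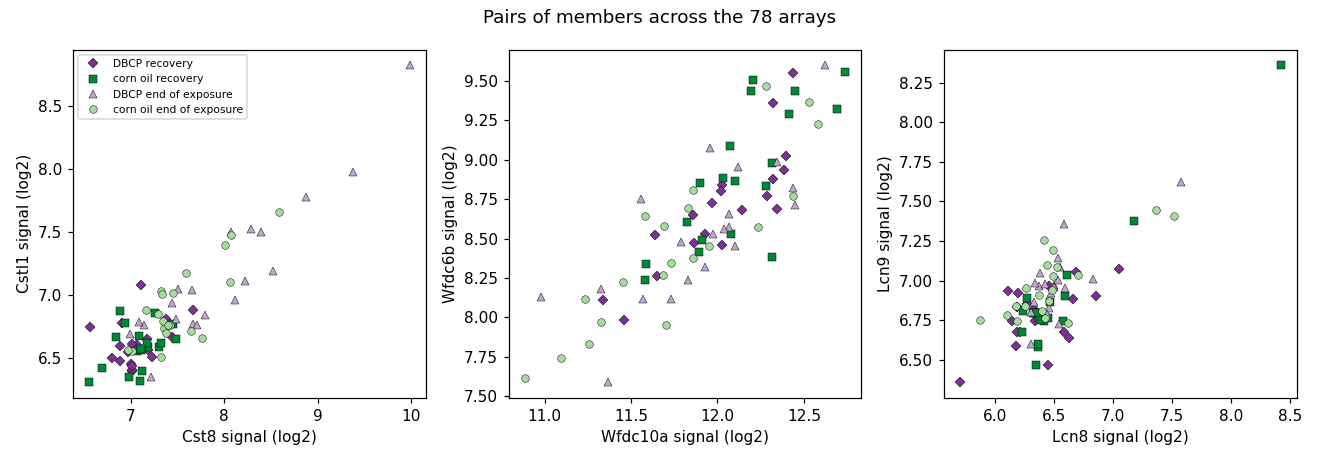
Log2 signals of 3 pairs of members across the 78 arrays, each point 1 array, marked by group. Cst8 and Cstl1 rise together towards DBCP replicate 13, Wfdc10a and Wfdc6b follow each other over the whole range in every group, and Lcn8 and Lcn9 are led by corn oil recovery replicate 20.

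Among the lipocalins, Lcn5, Lcn8, Lcn9 and Lcn10 had single arrays far above their group medians. Lcn5 (probe set 10834326) ran from 6.32 through a median of 6.80 to 7.15 in DBCP recovery, from 6.57 through 6.82 to 9.09 in corn oil recovery, from 6.33 through 6.91 to 8.30 in DBCP and from 6.35 through 6.82 to 8.75 in corn oil. The medians were close together, and the highest values came from replicate 20 of corn oil recovery (9.09), replicate 20 of corn oil (8.75), and replicates 4 (8.30), 12 (8.28) and 20 (8.02) of DBCP. Lcn5 did not pass in any comparison. Its difference between recovery and end of exposure was -0.33 (SE 0.15, adjusted p = 0.145) in DBCP rats and 0.08 (SE 0.15, adjusted p = 0.747) in corn oil rats, where it was -0.04 without corn oil recovery replicate 20.

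Corn oil recovery replicate 20 was the highest array for 5 members, Lcn5, Lcn8, Lcn9, Lcn10 and Cst11. Lcn8 was at 8.42, Lcn9 at 8.36 and Lcn10 at 7.77 there, while their group medians in corn oil recovery were 6.38, 6.79 and 6.56. DBCP replicate 4 came second for each of the 3, at 7.57, 7.62 and 7.64. In corn oil rats the difference between recovery and end of exposure was -0.09 for Lcn9 and -0.12 for Lcn10 with all arrays (adjusted p = 0.427 and 0.269). Both passed without that array, at -0.18 (adjusted p = 0.0447) and -0.18 (adjusted p = 0.0470). Lcn9 also passed in DBCP rats without it, at -0.20 (adjusted p = 0.0286 against 0.105). In DBCP rats all 7 lipocalin differences were below 0, between -0.33 and -0.02, and 0 passed.

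Lcn1, the tear lipocalin, was the 1 lipocalin to pass with all arrays. It was between 6.01 and 6.75 with a median of 6.35 in corn oil recovery, and between 5.98 and 6.96 with a median of 6.49 at the end of exposure. The fall was 0.16 (1.11-fold lower, SE 0.06, adjusted p = 0.0416), with 17 of 19 recovery arrays below the other mean. The call was lost when any of 18 single arrays was left out. Cst6, the skin cystatin E/M, had values of 5.99 to 6.68 with a median of 6.46 in corn oil recovery, against 6.06 to 6.91 with a median of 6.58 at the end of exposure. It fell by 0.15 (1.11-fold lower, SE 0.05, adjusted p = 0.0332), with 16 of 19 arrays below, and its call was lost without any of 7 single arrays. The calls of Lcn1 and Cst6 were also lost with quantile normalization, with centring and without the low-weight arrays. Wfdc1, known as ps20 and made by smooth muscle, ran from 6.91 through 7.21 to 7.70 in corn oil recovery, against 7.08, 7.39 and 7.70, and fell by 0.18 (SE 0.06, adjusted p = 0.0185), with 17 of 19 arrays below.

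**Figure D4:**
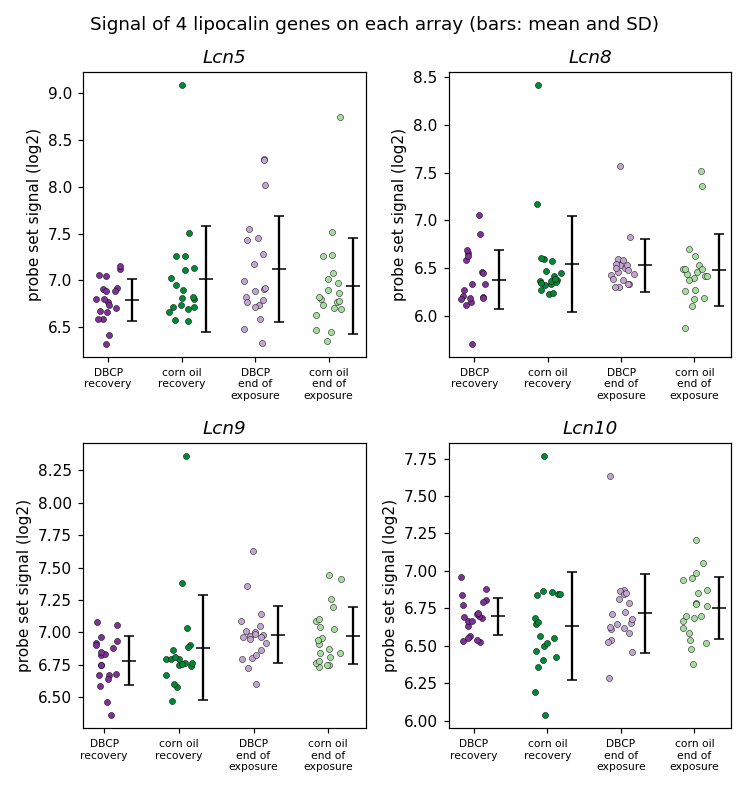
Log2 signal of Lcn5, Lcn8, Lcn9 and Lcn10 on each array, by group, with bars for the mean and SD. The group medians are close to each other, and the high values are single arrays, first of all corn oil recovery replicate 20 (9.09, 8.42, 8.36 and 7.77).

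For some members, the estimated corn oil changes differed in size between the sets of replicate numbers. Numbers 1 to 10 and 11 to 20 were each fitted alone. The labels give the numbers and do not say whether they mark a batch. In numbers 1 to 10, 10 members passed in corn oil rats (6 rose and 4 fell, against 16.3% of probe sets). Of these 10, 8 were among the 11 that passed with all arrays. In numbers 11 to 20, 0 passed (against 1.32% of probe sets), while all 11 members kept their sign in both. The 11 were picked by the fit over both sets, so their shared sign is no separate support. Wfdc10a differed by 0.68 (SE 0.17) in numbers 1 to 10 and by 0.07 (SE 0.15) in numbers 11 to 20. Spink14 differed by 0.76 (SE 0.13) and 0.13 (SE 0.10), Spink13 by 0.69 (SE 0.17) and 0.22 (SE 0.21), and Wfdc6b by 0.69 (SE 0.18) and 0.20 (SE 0.19), in the same order. Of the members that fell, Cst8 was at -0.58 and -0.29, Cst6 at -0.22 and -0.09, and Cstl1 at -0.38 and -0.29. Wfdc1 was at -0.22 and -0.15, and Lcn1 at -0.12 and -0.19.

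Cst3 and Cstb had like values in both sets, 0.41 and 0.38 for Cst3, and 0.42 and 0.42 for Cstb. Cst3 passed in neither set (adjusted p = 0.0564 and 0.154), and Cstb passed in numbers 1 to 10 alone (adjusted p = 0.0254 and 0.0569). In DBCP rats 4 members passed in numbers 1 to 10 (against 10.4% of probe sets) and 3 in numbers 11 to 20 (against 1.73%). Cst8 was at -0.96 and -0.85, Cstl1 at -0.44 and -0.64, and Spink14 at 0.62 and 0.48, and each of the 3 passed in both sets. These 3 had also been picked by the fit over both sets. The difference between the sets was not tested.

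**Figure D5:**
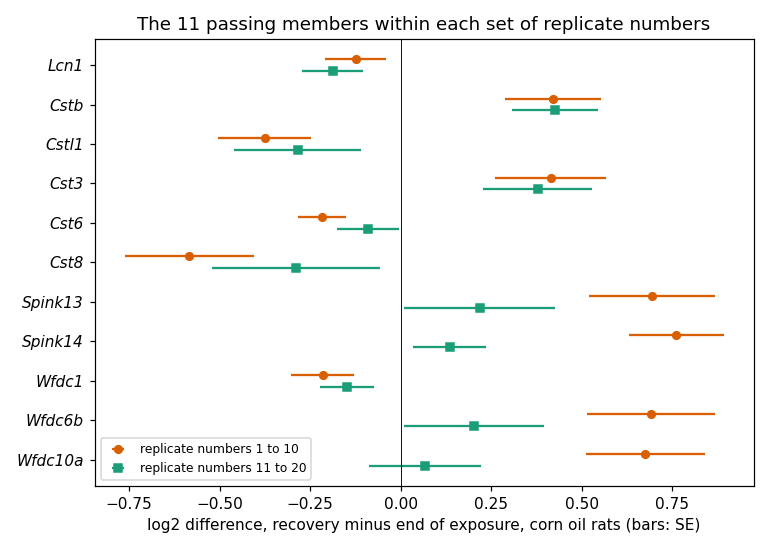
Log2 difference between recovery and end of exposure in corn oil rats for the 11 members that passed, fitted in replicate numbers 1 to 10 (circles) and 11 to 20 (squares) alone, with bars for 1 SE. Spink13, Spink14, Wfdc6b and Wfdc10a are at 0.68 to 0.76 in the first set and at 0.07 to 0.22 in the second, while Cst3 and Cstb lie close together.

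Other genes of epididymal principal cells, the secretory cells of the duct, went both ways in corn oil rats. Of 22 on the array, 1 rose and 0 fell in DBCP rats (median difference 0.03), beside 13.5% of all probe sets passing. In corn oil rats 3 rose and 3 fell (median 0.06), beside 24.3% of all probe sets. In corn oil rats Cd52, a surface antigen passed to sperm, rose by 0.72 (SE 0.13), Rnase12 by 0.53 (SE 0.17) and Akr1b1, an aldose reductase, by 0.29 (SE 0.09). Crisp1, a secreted protein that coats sperm, fell by 0.43 (SE 0.16), and Scgb1d4 and Spag11a fell by 0.18 each (SE 0.07 and 0.06). Etv1 rose by 0.21 (SE 0.05) in DBCP rats. Cd52 is also carried by lymphocytes. Their mean level per array ranged from 7.29 to 7.61 in DBCP recovery, 7.31 to 8.20 in corn oil recovery, 7.10 to 7.73 in DBCP and 7.21 to 7.87 in corn oil. In both comparisons of DBCP with corn oil, 0 of the 22 passed.

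Lcn5 gave no single relation to Crisp1 over the groups. For Lcn12, r with Crisp1 was 0.37 in DBCP recovery, 0.73 in corn oil recovery, 0.64 in DBCP and 0.81 in corn oil. These values of Lcn12 were singled out after they were seen and test nothing. Lcn5 and Crisp1 had r of -0.01 in DBCP recovery, 0.40 in corn oil recovery, 0.49 in DBCP and 0.59 in corn oil, and the last alone passed (adjusted p = 0.0335). That relation rested on 2 arrays, since r was 0.19 without the 2 farthest from the median of Lcn5 and rho was 0.18. Of the other marker lists, stroma with smooth muscle and endothelium had 13 genes on the array (2 rose and 0 fell in DBCP rats, 1 rose and 2 fell in corn oil rats), and erythrocytes had 5 (0 and 0 in DBCP rats, 0 and 1 in corn oil rats).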

How the data were processed

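RNA of sperm from the cauda epididymis of 78 rat samples was measured on arrays, labelled with biotin. The deposited values are log2 summaries per probe set, with 29214 probe sets and 0 missing values. The submitters' processing notes list limma with no version number. Details of background correction, normalization and probe summary were not given in the sources used here. Array medians were close, so no scaling was applied.

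Limma 3.58.1 (lmFit and eBayes, R 4.3.3) fitted 1 mean per group over all 78 arrays, with 5 contrasts, Benjamini-Hochberg adjustment over all probe sets and a threshold of 0.05. The fit was tested on simulated data. The number of arrays limits the precision. Intervals are 95% intervals for the difference between group means, from limma's SE. The labels call the samples biological replicates, and none says that each came from its own animal. Whether the spread behind that SE is one between single animals is therefore not known. Correlations used Python 3.11.15 and scipy 1.17.1.

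The members, the gene lists, the pairs and the rule for named genes were chosen with earlier results of these data known. Named were the members that passed in any contrast, the 8 of highest mean, the 3 of smallest p in contrasts with none passing, and the brightest of each family. Members singled out for 1 array (Cst13, Lcn8, Lcn9, Lcn10, Wfdc15a), Spink6 and the pairs over the limit were named after their values were seen. So were Lcn12 beside Crisp1 and Cst7 beside Cd74. Symbols came from the platform annotation, and all 40 members matched the RefSeq table by Entrez identifier. The platform gave 1 symbol to 15310 probe sets, several to 323 and none to 13581. Alternatives were quantile scaling or centring, leaving out dim probe sets, weighting arrays, a trended robust prior, subsets of samples, 2 blocks, a plain t statistic, a threshold of 0.10, genes in place of probe sets, the mean of probe sets, and each array left out. Replicate numbers recur in the 4 groups, but same-numbered arrays did not deviate together as a rule. For their deviations from the group means, r was over 0.1 for 41 of 114 pairs, with a median of 0.01. Single pairs ran from -0.49 to 0.57, and arrays of different numbers were not compared. The labels do not say that the numbers pair samples, and they were not used to do so in the main fit.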

Additional observations from a re-analysis of the deposited data

How the results depend on the processing

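No member named in a comparison because it passed, or because its p was among the 3 smallest where none passed, changed sign under the alternatives. Other differences, none of which passed, did. In corn oil rats Lcn5 was at 0.08, against -0.14 in numbers 1 to 10 and -0.04 without corn oil recovery replicate 20, and Spink2 was at -0.08, against 0.16 in numbers 11 to 20. Lcn5 after recovery was at -0.22, against 0.03 in numbers 1 to 10. In DBCP rats Spink13 was at 0.14 and Cstb at 0.09, against -0.15 and -0.06 in numbers 11 to 20. Both comparisons of DBCP with corn oil and the interaction had 0 members passing under all alternatives, each array left out included. In corn oil rats (6 rose, 5 fell), numbers 11 to 20 alone gave 0 that rose and 0 that fell. Numbers 1 to 10 alone, with 10 corn oil recovery arrays against 9, gave 6 and 4. The members that fell were 3 with quantile normalization, 2 with centring on the array median and 3 among the brighter probe sets alone, a filter that removes Cst6 and Lcn1. Of all probe sets tested, 22.7%, 20.8% and 37.5% passed in these settings. In DBCP rats (1 rose, 2 fell), the members that rose were 3 with quantile normalization, with array weights and at an adjusted p of 0.10. Of all probe sets, 14.1%, 16.6% and 19.2% passed there, against 13.5% in the main fit. The members that rose were 2 with centring, with the groups of the contrast alone, with the plain 2-sample t statistic, with 1 probe set per gene and without the low-weight arrays. There the share of probe sets passing was between 10.7% and 18.2%. Array weights gave 4 that fell. Principal cell genes that rose in DBCP rats were 2 with quantile normalization, against 1. With the replicate block the count stayed at 11 in corn oil rats and 3 in DBCP rats, with Cst6 lost and Spink1 gained. The labels do not say that the numbers pair the samples. Leaving out single arrays gave 6 to 7 that rose and 3 to 7 that fell in corn oil rats, and 1 to 2 that rose and 2 to 3 that fell in DBCP rats. The count of 3 came without corn oil replicate 7 or 10, or corn oil recovery replicate 4, 7, 11 or 13, where Cst6 and Lcn1 were lost, and that of 7 without corn oil recovery replicate 20. In DBCP rats 5 passed in all without DBCP recovery replicate 7, 12 or 13. The mean of all probe sets of a gene is the same value here, since each member has 1. Spink1 passed in corn oil rats without any of 17 single arrays (adjusted p = 0.0538 with all), and Spink1l in DBCP rats without any of 15 (adjusted p = 0.0523): DBCP 10, 11, 12, 14, 18 and 20, DBCP recovery 4, 7, 12, 13 and 19, corn oil 18, and corn oil recovery 2, 10 and 11. Cst3 passed there without DBCP recovery 6. Lcn1 lost its call without corn oil 1, 3, 7, 8, 10, 11, 12, 13, 14 or 20, or corn oil recovery 3, 4, 7, 10, 11, 13, 15 or 19, and Cst6 without corn oil 7, 9 or 10, or corn oil recovery 4, 7, 11 or 13. Other causes were not tested. No measure of signal over background was used, which limits what can be said of the dimmer members.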
